A study of Homo sapiens with 10 samples.

Results

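Mitochondrial ribosomal proteins are the nuclear-encoded proteins of the ribosome inside mitochondria. They were taken here as the transcripts present in both deposited expression tables whose symbol begins with MRPL or MRPS followed by a digit, which gave 75 of 11258 transcripts, and 72 of these were among the 7015 tested transcripts that reached 5 FPKM in 1 or more libraries of both assays. FPKM is the number of reads scaled to the length of the transcript and the total of the library. The members were measured in BJ cells, human primary fibroblasts immortalised by hTERT expression, in a control and after 2, 4, 6 and 19 h on Nutlin-3a, which blocks MDM2, the protein that keeps p53 low. At each of these 5 times there was 1 library of RNA-Seq and 1 of Ribo-Seq, the sequencing of mRNA fragments covered by ribosomes. The comparison addresses how activation of p53 changes mRNA levels and their translation. With 1 library per group no test against replicate spread was possible, so the errors given are counting errors alone and no p-value is given.

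The mitochondrial ribosome translates the few mRNAs of the mitochondrial genome, all of which encode core subunits of the oxidative phosphorylation complexes. Its RNAs come from the mitochondrial genome, but all of its proteins are encoded in the nucleus, translated by cytosolic ribosomes and imported. Part of them descend from the bacterial ribosome, whereas others were added in mitochondria and have no bacterial counterpart. Symbols do not always follow the structure. MRPS18A and MRPS30 sit in the large subunit in spite of their S, and MRPS36 is now known as a component of the 2-oxoglutarate dehydrogenase complex. By this assignment, written from general knowledge, the tested members comprised 46 proteins of the large subunit, 25 of the small subunit and MRPS36. By origin, 42 have a bacterial counterpart and 30 are specific to mitochondria. MRPL12 was not analysed here.

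Fibroblast markers were abundant in the control RNA. All 9 listed genes were above 5 FPKM, from 55.5 for PDGFRB to 4194 for VIM, and they summed to 9821 FPKM. Of 6 epithelial markers 5 were in the RNA-Seq table and 2 were above 5 FPKM, KRT8 (12.4) and KRT18 (292.9), whereas CDH1 was at 0.017. Of 5 immune markers 3 were in the table, and CD68 (62.9), a lysosomal protein of many cell types, was the single gene above 5 FPKM, with PTPRC at 0.11. CDKN1A, the p53-induced inhibitor p21, went from 68.6 FPKM in the control to 212, 915, 1204 and 1316 FPKM in RNA at 2, 4, 6 and 19 h. The totals to which the FPKM values were scaled, as recovered from the spacing of the values, were 23845560 to 27554293 reads in RNA-Seq and 7744899 (19 h) to 14460727 (4 h) in Ribo-Seq. In the control, a tested member had between 293 and 2236 RNA-Seq reads (median 783) and between 201 and 2171 Ribo-Seq reads. At 19 h the Ribo-Seq reads ranged from 65 to 1089, with a median of 269. The counting SE of a log2 change at 19 h had a median over the members of 0.073 (RNA), 0.11 (ribosome density) and 0.13 (translational efficiency).

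The sequences around the annotated transcription starts introduce the members, since the start of a transcript and its promoter carry the elements by which translation genes are known to be controlled. Cytosolic ribosomal protein mRNAs open with a C and a run of pyrimidines, the 5' terminal oligopyrimidine tract, through which mTOR controls their translation. Windows of 60 bases before to 32 bases from the start are shown for the tested members with the lowest and the highest change of translational efficiency at 19 h that have an entry in the RefSeq promoter table (GRCh38.p14, first start listed for each gene), and for MRPL20. Capitals mark the motifs CCGGAAG, bound by ETS factors, and AAGATGGC, bound by YY1, on either strand (CTTCCGG and GCCATCTT on the other strand).
MRPL50, chr9:101398587-101398678, minus strand, lowest change: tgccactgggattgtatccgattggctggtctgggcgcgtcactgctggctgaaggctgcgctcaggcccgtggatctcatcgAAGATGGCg
MRPS33, chr7:141014921-141015012, minus strand, lowest but 1: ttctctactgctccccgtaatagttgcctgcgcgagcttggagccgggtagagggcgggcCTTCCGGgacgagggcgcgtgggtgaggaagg
MRPL42, chr12:93467454-93467545, plus strand, lowest but 2: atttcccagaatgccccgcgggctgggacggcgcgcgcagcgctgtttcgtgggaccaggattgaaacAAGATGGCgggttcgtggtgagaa
MRPL1, chr4:77862770-77862861, plus strand, lowest but 4: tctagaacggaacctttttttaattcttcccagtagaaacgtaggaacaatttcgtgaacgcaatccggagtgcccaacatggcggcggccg
MRPS34, chr16:1773103-1773194, minus strand, highest change: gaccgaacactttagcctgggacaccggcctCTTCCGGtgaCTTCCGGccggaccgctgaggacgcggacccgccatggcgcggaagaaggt
MRPL4, chr19:10251891-10251982, plus strand, highest but 1: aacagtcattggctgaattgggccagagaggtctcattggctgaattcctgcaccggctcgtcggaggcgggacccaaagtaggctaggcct
MRPL55, chr1:228109268-228109359, minus strand, highest but 2: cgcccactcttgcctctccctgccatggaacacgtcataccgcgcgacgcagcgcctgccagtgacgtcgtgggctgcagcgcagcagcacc
MRPS18A, chr6:43687760-43687851, minus strand, highest but 3: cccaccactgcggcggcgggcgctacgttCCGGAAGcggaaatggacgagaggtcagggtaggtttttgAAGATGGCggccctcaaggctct
MRPL20, chr1:1407262-1407353, minus strand, highest but 1 in control RNA: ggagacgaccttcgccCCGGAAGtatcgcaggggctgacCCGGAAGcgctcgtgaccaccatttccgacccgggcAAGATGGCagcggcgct
For comparison, the first 20 bases from the annotated start are given for RPS23 and RPS6, proteins of the small cytosolic subunit, with a C followed by 4 pyrimidines in capitals.
RPS23: CTCTTtcgctcaggcccgtg
RPS6: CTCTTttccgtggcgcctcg
MRPS33: CTTCCgggacgagggcgcgt
Of the 9 members printed, MRPS33 alone opened in this way. The AAGATGGC of MRPL50, MRPL42, MRPS18A and MRPL20 lay after the start in the transcribed direction and contains the letters ATG, whereas the CCGGAAG or CTTCCGG of MRPS34, MRPS18A and MRPL20 lay before it. MRPL1, MRPL4 and MRPL55 had neither motif in the windows shown.

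In the control the members' RNA lay within a 20.6-fold range, from 6.08 FPKM for MRPL50 to 125.4 FPKM for MRPS24, with a median of 23.8 FPKM against 20.1 over all tested genes. The 3 highest were MRPS24 (the mitochondrial counterpart of bacterial S3), MRPL20 (78.2 FPKM) and MRPL51 (68.4 FPKM), a mitochondria-specific protein of the large subunit. The 3 lowest were MRPL50, MRPS18C (8.73 FPKM) and MRPL55 (9.03 FPKM). Their ribosome density, the Ribo-Seq FPKM, had a median of 35.9 FPKM, against 15.6 FPKM over all tested genes. Translational efficiency (TE), log2 of the ratio between Ribo-Seq and RNA-Seq FPKM, was taken for each gene. Its median was 0.74 over the members and -0.27 over all tested genes. The 70 nuclear-encoded oxidative phosphorylation subunits had a median TE of 1.29 and the 77 cytosolic ribosomal proteins one of 0.83. TE levels compare genes with care, because 1 whole number of bases fitted both tables as the length of all 75 members, so both assays were divided by the same length for each gene, and whether Ribo-Seq reads outside the coding part were counted was not resolved. The members' recovered lengths had a median of 1365 bases (613 to 4586 among those tested), against 2594 over all tested genes.

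**Figure D1:**
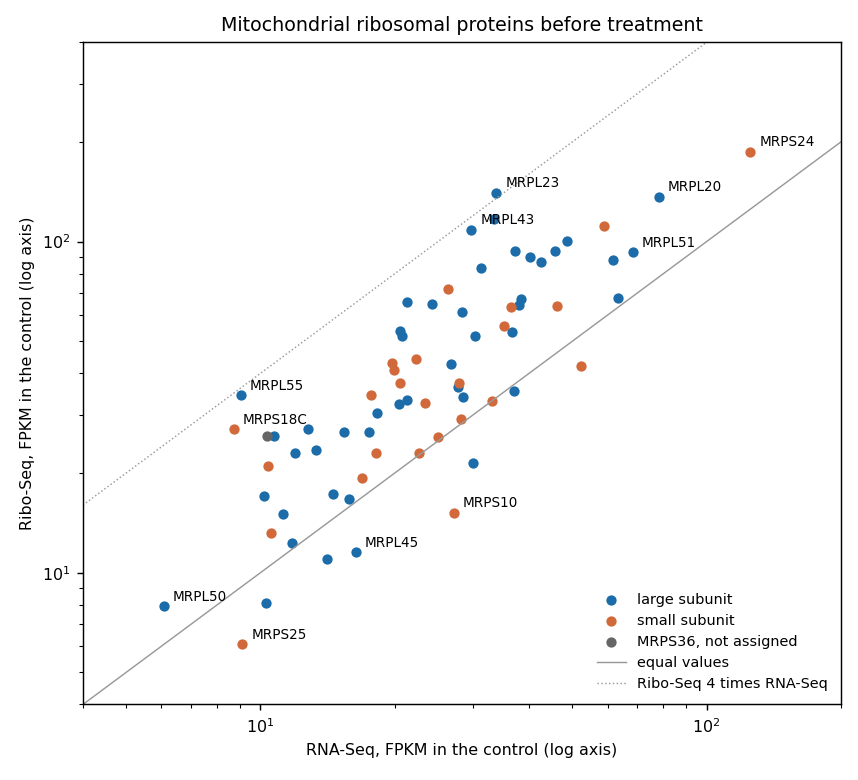
Ribo-Seq against RNA-Seq FPKM of the 72 tested members in the control libraries, both on log axes, with 1 point per gene coloured by subunit and the genes named for the highest or lowest values labelled. Of the 72 points 63 lie above the solid line of equal values, MRPL23 and MRPL55 lie nearest the dotted line at 4 times the RNA value, and MRPS10 and MRPS25 lie furthest below the solid line.

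The highest control TE among the members was that of MRPL23, a protein at the exit of the ribosomal tunnel, at 2.06, with 33.8 FPKM in RNA-Seq and 140.5 in Ribo-Seq. MRPL55 (1.93) and MRPL43 (1.87) followed. The lowest were MRPS10 (-0.84), MRPS25 (-0.58) and MRPL45 (-0.50), the last a protein that anchors the mitochondrial ribosome at the inner membrane. The recovered transcript of MRPL23 is 613 bases long and that of MRPS25 is 4586 bases long. The counting SE of a control TE was at most 0.13, so the top 3 and the bottom 3 are separated by much more than counting error, while MRPL55 and MRPL43 are not separated from each other.

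RNA of the members stayed near the control at every time. Their median log2 changes at the 4 times of treatment were -0.11, -0.10, 0.031 and -0.18, beside -0.045, -0.074, -0.0024 and -0.067 over all tested genes. At 2 h 68 of 72 members were below the control, with changes between -0.37 and 0.05, and at 6 h 29 were. Of the 7015 tested genes 4528 were below it at 2 h and 3530 at 6 h. No member passed a 1.5-fold change, the size used for every call below, in RNA at 2 h or 4 h. Over all tested genes such calls made up 0.214% lower and 2.08% higher at 2 h, and 3.58% lower and 3.51% higher at 4 h. At 6 h MRPL49 was called higher and no member lower, against 5.74% and 11.6% of all tested genes. At 19 h MRPL15 and MRPS2 were called lower and no member higher, 2 and 0 of 72, whereas 14.6% of all tested genes were called lower and 7.13% higher.

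The members that moved most in RNA at 19 h included proteins with and without bacterial counterparts. MRPL15 (ENSG00000137547), a large-subunit protein of bacterial descent, had RNA values of 36.6, 32.3, 32.4, 30.4 and 20.7 FPKM in the control and at 2, 4, 6 and 19 h, which gave a log2 change at 19 h of -0.82 with a counting SE of 0.074. MRPS2 (ENSG00000122140), a small-subunit protein of bacterial descent, had 28.1, 26.4, 23.9, 19.0 and 17.6 FPKM (-0.68 at 19 h). MRPL15 was close to its control up to 6 h, with -0.27, and lower at 19 h, while MRPS2 was at -0.56 by 6 h. MRPL46 and MRPL17 had log2 RNA changes of -0.58 and -0.56 at 19 h, just inside the 1.5-fold limit. MRPL46 was lower already at 2 h (-0.37) and 4 h (-0.50). At the other end, MRPS6, whose gene overlaps SLC5A3, had 52.2, 48.6, 61.1, 66.0 and 69.3 FPKM in RNA, a log2 change of 0.41 at 19 h. MRPL49 had 30.0, 28.5, 39.7, 45.4 and 39.6 FPKM, with its highest value at 6 h (0.60) and a change of 0.40 at 19 h. Both were below their control at 2 h and above it from 4 h on. MRPS33 (0.23) and MRPL43 (0.20) were next at 19 h.

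Ribosome density of the members was lower than in the control at 2, 6 and 19 h and slightly higher at 4 h. The medians of the log2 change were, in order of time, -0.23, 0.074, -0.20 and -0.48. Over all tested genes they were 0.016, 0.10, -0.020 and -0.19. At 2 h MRPL1, MRPL23 and MRPS25 were called lower, 3 of 72, and none higher, with 2.72% lower and 6.96% higher among all tested genes. At 4 h MRPL1 was called lower and MRPL49 higher, against 3.26% and 10.4% of all tested genes. At 6 h 15 members were called lower and 1, again MRPL49, higher, when 19.0% of all tested genes were called lower and 15.0% higher. At 19 h 28 of 72 were called lower and none higher, beside 29.8% and 15.0%, and 60 of 72 were below their control. Of the 7015 tested genes 4217 were below theirs. Of the 28 members, 26 had RNA within 1.5-fold of the control, MRPL15 and MRPS2 being the exceptions. These 2 were the only ones of all 72 past that limit in RNA at 19 h. With the trend of density over transcript length in all tested genes removed, the members' medians were -0.079 at 2 h (0.022 over all tested genes), -0.11 at 6 h (-0.025) and -0.31 at 19 h (-0.19). Called lower at 19 h were then 20 of 72 members and 29.7% of all tested genes. Against the 2 h library the members' medians were -0.025 at 6 h and -0.28 at 19 h, where all tested genes had -0.056 and -0.21.

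**Figure D2:**
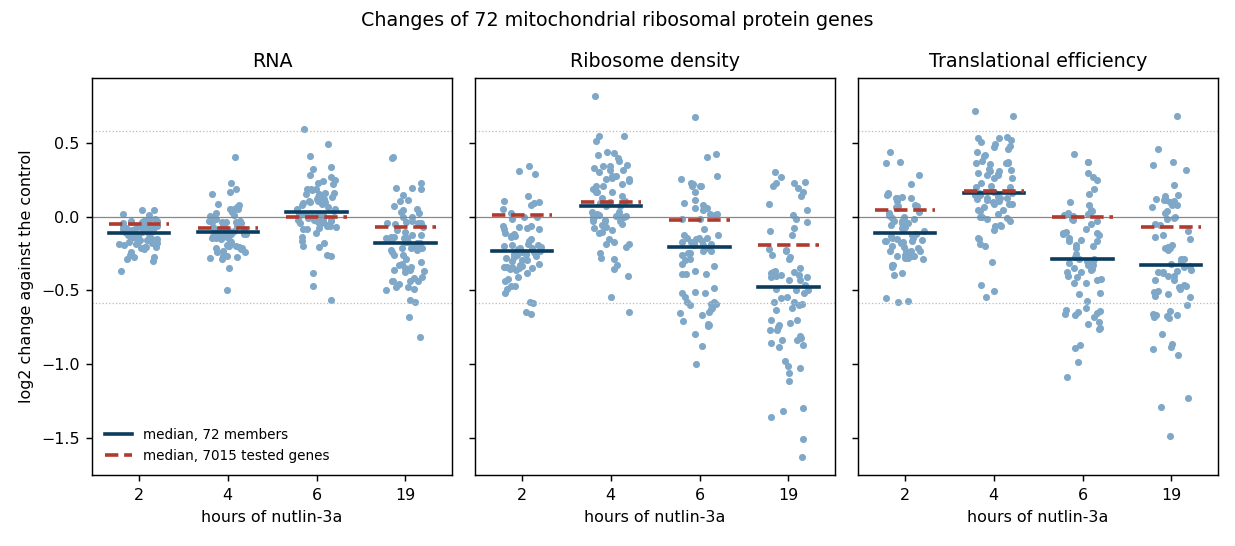
Log2 change against the control of RNA, ribosome density and TE at 2, 4, 6 and 19 h, with 1 point for each of 72 members, solid bars for the members' median, dashed bars for the median of 7015 tested genes and dotted lines at 1.5-fold. RNA stays close to the dashed bars, while the members' density and TE medians lie below them at 2, 6 and 19 h, with TE medians of -0.29 at 6 h and -0.33 at 19 h.

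MRPL49 stood at the upper end in density as in RNA. Its Ribo-Seq values were 21.5, 21.4, 38.0, 34.4 and 26.5 FPKM, which gave log2 changes of 0.82 at 4 h, 0.68 at 6 h and 0.31 at 19 h. At 4 and 19 h its TE differed from the control by 0.42 and -0.10. MRPS24, the most abundant member, had 186.9, 178.7, 225.0, 184.6 and 198.9 FPKM in Ribo-Seq, and its density change at 19 h was 0.09. MRPL20 and MRPL51, next in RNA, had density changes of -0.47 and -0.75 at 19 h.

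TE of the members was near its control at 2 h, higher at 4 h and lower at 6 and 19 h. The medians of the log2 change in TE were, in order of time, -0.11, 0.16, -0.29 and -0.33, while those of all tested genes were 0.045, 0.18, 0.0021 and -0.067. The 4 h value thus lay within 0.02 of the shift of all genes, and at the other times the members lay below it by 0.15 (2 h), 0.29 (6 h) and 0.26 (19 h). At 2 h no member was called, with 1.78% lower and 5.39% higher among all tested genes. At 4 h MRPS34 and MRPS36 were called higher and none lower, against 9.24% and 0.713%. At 6 h 16 of 72 were called lower and none higher, where 12.3% of all tested genes were called lower and 13.3% higher. At 19 h 16 were called lower and MRPS34 higher, beside 15.6% and 9.00%. All 16 members called lower in TE at each of these times had RNA within 1.5-fold of the control. Few members passed that limit in RNA at all, 1 at 6 h and 2 at 19 h, so this count was largely fixed beforehand.

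TE changes moved with transcript length. Across 7014 tested genes with a recovered length, the TE change was higher in longer transcripts, by 0.16 per doubling of length at 6 h and 0.15 at 19 h, and the members are short. With this trend removed the medians for the members were -0.055 and -0.17 at these 2 times, beside 0.015 and -0.066 over all tested genes, and 7 and 10 members were called lower, beside 12% and 15.6% of all tested genes. Among the 72 members themselves the relation at 19 h had the opposite sign, -0.15 per doubling (Pearson's r = -0.22, against 0.24 over all tested genes), as a description across genes that share the same 4 libraries. MRPL50, with a transcript of 3332 bases, and MRPL42, with one of 3138 bases, were among the 3 lowest in TE at 19 h. Against the 2 h library in place of the control, the medians were -0.20 at both times.

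The 6 members with the lowest TE change at 19 h had ribosome density well under the control and RNA close to it. MRPL50 (ENSG00000136897), a mitochondria-specific protein of the large subunit, had 6.08, 5.97, 6.45, 6.52 and 5.51 FPKM in RNA-Seq. In Ribo-Seq it had 7.93, 5.32, 8.95, 5.30 and 2.56 FPKM, or 311, 210, 431, 178 and 66 reads. RNA thus varied little, and density was at its control level at 4 h and lowest at 19 h, for a TE change of -1.49 with a counting SE of 0.22. With values below 5 FPKM set to 5 the change was -0.52, inside the limit for a call. MRPS33 (ENSG00000090263), a mitochondria-specific protein of the small subunit, had 18.1, 15.7, 16.7, 25.5 and 21.3 FPKM in RNA and 23.0, 16.4, 22.5, 15.2 and 11.0 FPKM in density. At 6 and 19 h its TE differed from the control by -1.09 and -1.29 (SE 0.22 at 19 h), with RNA above the control and density below it at both times.

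MRPL42 (ENSG00000198015), also specific to mitochondria and part of the large subunit, had 14.1, 12.7, 14.4, 12.9 and 11.6 FPKM in RNA and 11.0, 8.17, 10.8, 5.50 and 3.87 FPKM in density. At 6 and 19 h the TE differed from the control by -0.87 and -1.23 (SE 0.18 at 19 h). MRPL1 (ENSG00000169288), which forms the flexible L1 stalk near the tRNA exit site, had 12.3, 7.75, 7.84, 8.39 and 6.07 FPKM in density with RNA between 10.8 and 12.7 FPKM. It was low from the first time on, with TE changes of -0.58, -0.54, -0.65 and -0.90 at 2, 4, 6 and 19 h, and at 4 h its TE change was the lowest of all members, followed by that of MRPS6 (-0.50). Against the 2 h library its TE at 19 h differed by -0.31, inside the limit for a call. MRPL13 (ENSG00000172172), a large-subunit protein of bacterial descent, had 61.1, 48.8, 59.0, 39.8 and 24.5 FPKM in density, and its RNA was 28.3 FPKM in the control and 20.9 at 19 h. Its TE change of -0.89 at 19 h (SE 0.14) came with an RNA change of -0.43, the largest RNA change among these 6.

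MRPS36 (ENSG00000134056) differed between times. Its RNA was 10.3, 9.52, 9.39, 10.1 and 10.1 FPKM, and its density was 25.9, 19.9, 37.9, 16.3 and 13.2 FPKM. At 4 h its TE was above the control by 0.69 (SE 0.15), and at 19 h the difference was -0.94 (SE 0.18). RNA was flat, density was highest at 4 h and lowest at 19 h, and the other 5 of these members had TE changes between -0.54 and 0.09 at 4 h.

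**Figure D3:**
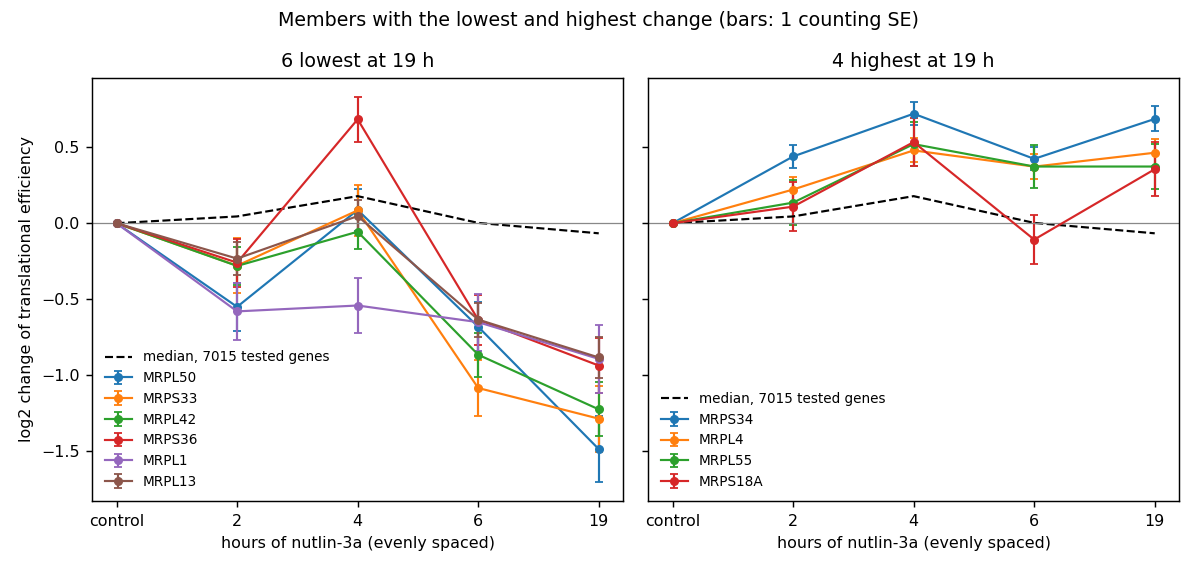
Log2 change of TE in the control and at 2, 4, 6 and 19 h, evenly spaced, for the 6 members with the lowest change at 19 h (left) and the 4 with the highest (right), with bars of 1 counting SE and a dashed line for the median of 7015 tested genes. On the left MRPS36 alone is well above 0 at 4 h and all 6 are below -0.8 at 19 h. On the right MRPS34, MRPL4 and MRPL55 are above 0 at every time, and MRPS18A is below 0 at 6 h.

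At the upper end stood MRPS34 (ENSG00000074071), a mitochondria-specific protein of the small subunit needed for its stability. Its RNA was 59.0, 53.4, 48.6, 51.5 and 42.4 FPKM, lower than the control at every time, while its density was 111.7, 137.1, 151.9, 130.8 and 129.2 FPKM, higher at every time. The TE differences were 0.44, 0.72, 0.42 and 0.69 at 2, 4, 6 and 19 h, with a counting SE of 0.081 at 19 h. Against the 2 h library the 19 h difference was 0.25, inside the limit for a call. MRPL4 (ENSG00000105364), which lines the exit tunnel, followed with 0.22, 0.48, 0.37 and 0.47, at densities of 67.1, 74.1, 85.5, 77.5 and 69.3 FPKM. For both, RNA was lower at 19 h (-0.48 and -0.42) and density close to or above the control. MRPL55 had a TE change of 0.37 at 19 h (SE 0.15). MRPS18A had 0.36 (SE 0.18), with RNA of 10.7 FPKM in the control and 7.95 FPKM at 19 h.

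The 3 paralogs of bacterial S18 differed. MRPS18C, the counterpart proper in the small subunit, had a density of 27.1 FPKM in the control, 14.7 at 6 h and 14.7 at 19 h, and TE changes of -0.99 and -0.67 (at 19 h -0.29 against the 2 h library and -0.58 without the length trend, both inside the limit for a call). MRPS18B, which occupies another site of the small subunit, had a TE change of -0.11 at 6 h and -0.51 at 19 h. MRPS18A, in the large subunit, had -0.11 and 0.36. MRPS30, a large-subunit protein, had densities of 15.1, 18.8, 19.2, 18.3 and 14.9 FPKM, with TE changes of 0.30 at 6 h and 0.12 at 19 h. Among the members named for control levels, the TE change at 19 h was -0.86 for MRPS25, -0.68 for MRPL45, -0.37 for MRPS10, -0.22 for MRPL23, -0.02 for MRPS24 and 0.07 for MRPL43. The value of MRPS25 was 0.22 with values below 5 FPKM set to 5, because its densities were 6.08 FPKM in the control and 2.37 at 19 h.

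**Figure D4:**
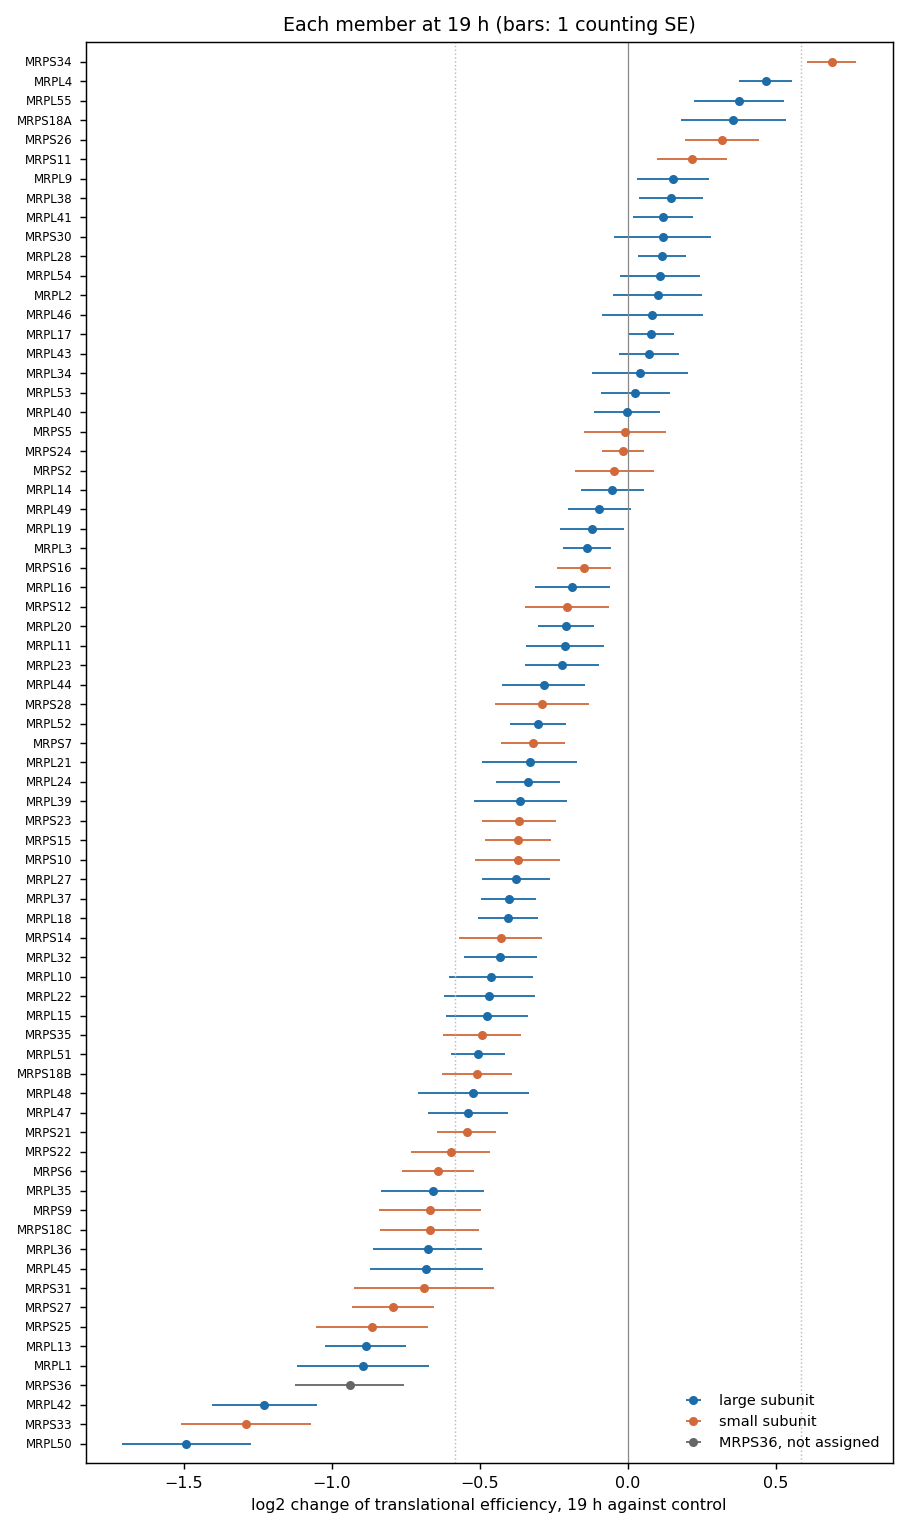
Log2 change of TE at 19 h against the control for each of the 72 tested members, sorted, with bars of 1 counting SE, colours for the subunit and dotted lines at 1.5-fold. Of the values, 16 lie at or below the left dotted line, MRPS34 alone lies beyond the right one, and MRPL50, MRPS33 and MRPL42 stand apart at the low end.

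By subunit, TE at 19 h differed from the control by a median of -0.22 for 46 large-subunit proteins and -0.37 for 25 small-subunit proteins, with 7 and 8 called lower. At 6 h the medians were -0.27 and -0.28, with 9 and 6 called lower. By origin, proteins with a bacterial counterpart had -0.31 at 19 h (7 of 42 called lower) and mitochondria-specific proteins -0.36 (9 of 30). At 6 h the medians were -0.27 and -0.31, with 8 called lower in each. Over all tested genes 15.6% were called lower in TE at 19 h and 12.3% at 6 h. The spread of levels among the members was wider at 19 h in density and TE than in the control, and about the same in RNA. The SD of log2 RNA-Seq FPKM across the 72 members was 0.86 in the control and 0.88 at 19 h. For density it was 1.07 and 1.31, and for TE 0.63 and 0.86. Over all tested genes the SD of TE was 0.90 in the control and 0.91 at 19 h, and that of density 1.79 and 1.88. The SD of TE was also wider at 19 h in cytosolic ribosomal proteins (0.73 and 0.93) and in oxidative phosphorylation subunits (0.69 and 0.77). The Ribo-Seq reads of a member were fewer at 19 h, and the part of depth in this wider spread was not tested.

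Between libraries that have no sample in common, the members' TE was higher at 4 h than at 2 h, by a median of 0.27 on the log2 scale and in 65 of 72 members, against 0.13 over all tested genes. Of the 7015 tested genes 4551 were higher in TE at 4 h than at 2 h. Between 6 and 19 h the median TE step was -0.01 (-0.08 over all tested genes), whereas RNA and density were both lower at 19 h than at 6 h, by medians of -0.23 and -0.26. RNA was lower in 65 and density in 61 of 72 members at this step, and in 4478 and 4876 of the 7015 tested genes. Over all tested genes these RNA and density steps were -0.10 and -0.15.

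Other gene groups of the same machinery show where the members lie. Cytosolic ribosomal proteins had median TE changes of -0.997 at 6 h and -1.32 at 19 h, with 70 and 74 of 77 called lower. Nuclear-encoded oxidative phosphorylation subunits, the partners of the proteins made by the mitochondrial ribosome, had -0.37 and -0.42, with 22 of 70 called lower at each time. The members had -0.29 and -0.33, with 16 of 72 called lower at each time. Over all tested genes 12.3% were called lower at 6 h and 15.6% at 19 h. All of these values share the same control libraries. The single cytosolic ribosomal protein change nearest to 0 at 19 h was -0.45, lower than that of 47 members.

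Of 6 tested mitochondrial ribosome proteins that carry other symbols, none was called in TE at 19 h, where 15.6% of all tested genes were called lower and 9.00% higher. The median change of the 6 was 0.03. DAP3, a small-subunit GTP-binding protein, was lowest with -0.39, followed by ICT1 (-0.16), the peptidyl-tRNA hydrolase of the large subunit. AURKAIP1 (0.34) and GADD45GIP1 (0.33) were highest. Of 13 mitochondrial translation factors and partners, 5 were called lower and none higher at 19 h, with a median of -0.29, against the same 15.6% and 9.00%. The initiation factors MTIF3 (-1.41, counting SE 0.25) and MTIF2 (-1.16, SE 0.19) and the recycling factor MRRF (-1.29, SE 0.28) had changes of the size seen in cytosolic ribosomal proteins. Densities were low, however. MTIF2 had 8.9 FPKM in the control and 3.8 at 19 h, and MRRF had 6.64 and 2.59. No values with a floor of 5 FPKM are given for these lists. Density of MTIF3 was 12.2 FPKM in the control and 5.73 at 19 h, while its RNA was 17.5 and 21.9 FPKM. The elongation factor TUFM (0.31) and the methionyl-tRNA formyltransferase MTFMT (0.11) were at the other end. Of 16 genes of ribosome assembly and rRNA modification, 2 were called lower and none higher at 19 h, against 15.6% and 9.00% of all tested genes. Their median TE change was -0.25. It was lowest in FASTKD2 (-0.76) and RPUSD4 (-0.65), whose densities at 19 h were 3.56 and 3.40 FPKM. RPUSD3 (0.53) and DHX30 (0.30) were highest.

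Promoter windows of 300 bases, from 250 before to 50 from the annotated start, were found for 63 of the 72 tested members and for 5314 tested genes. The first start listed was used for each gene, and 11 members had several. The motif AAGATGGC was present on either strand in 31.7% of the members (20 genes), 6.62% of all tested genes and 3.03% of 27305 promoters of all genes. It was in 17.4% of oxidative phosphorylation subunits and 11.3% of cytosolic ribosomal proteins. Of the members' 21 matches, 17 read in the direction of the gene and 15 began after the start, where the ATG within the motif can coincide with a start codon. CCGGAAG was in 41.3% of members (26 genes), 21.9% of all tested genes and 10.7% of all promoters. In all, 38 of 63 members had CCGGAAG or AAGATGGC and 8 had both (MRPL20, MRPL38, MRPL47, MRPL51, MRPL52, MRPS10, MRPS12 and MRPS18A). Shares for GCGCATGCG, bound by NRF1 (4.76%), and for the E-box CACGTG (9.52%) were close to those of all tested genes (4.23% and 10.5%).

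**Figure D5:**
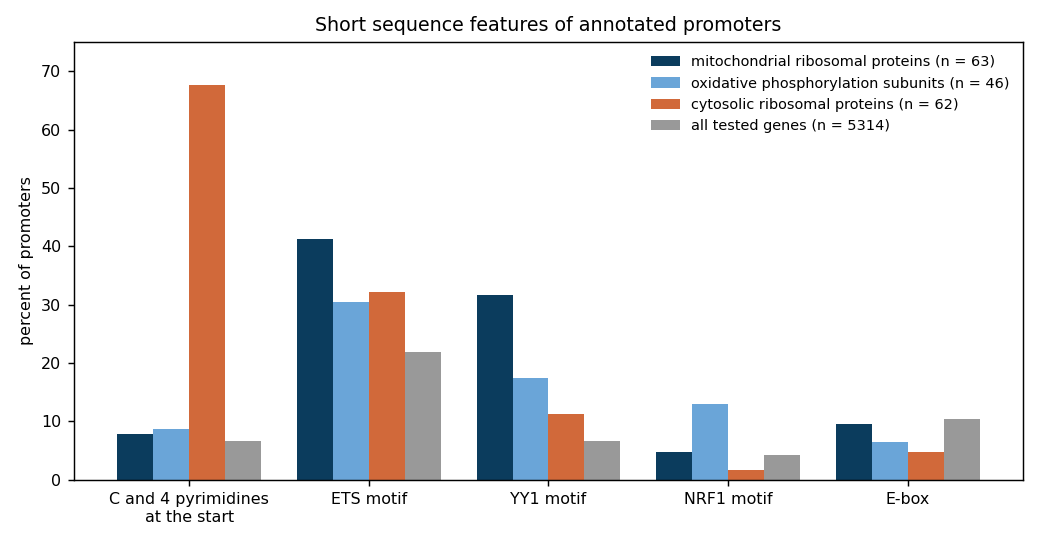
Share of promoters, in percent, with a C and 4 pyrimidines at the annotated start or with the ETS, YY1, NRF1 or E-box motif on either strand of the 300 bases, in 4 groups given with their n. Mitochondrial ribosomal proteins have the tallest bars for the ETS motif (41.3%) and the YY1 motif (31.7%), and cytosolic ribosomal proteins the tallest for the pyrimidine start (67.7%).

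A transcript start of C followed by 4 pyrimidines was annotated for 5 of 63 members (7.94%), 6.70% of all tested genes and 67.7% of cytosolic ribosomal proteins. The 5 members were MRPL44, MRPL45, MRPL53, MRPS27 and MRPS33. Their median TE change at 19 h was -0.68, against -0.26 for the other 58 members. MRPS33 (-1.29) and MRPL45 (-0.68) were among them, but so was MRPL53, with 0.025. In MRPS33 and MRPL53 this start is also part of a CTTCCGG match. Among cytosolic ribosomal proteins the median was -1.29 with such a start and -1.33 without it. Over all tested genes it was -0.28 with such a start and -0.063 without it. Starts in the table are single annotated bases, so a tract beginning some bases away would not be counted. Members with AAGATGGC had a median TE change of -0.40 at 19 h and those without it -0.19. With CCGGAAG the median was -0.21, and without it -0.34. Over all tested genes the medians were -0.17 with AAGATGGC and -0.065 without it. For CCGGAAG they were -0.15 with it and -0.046 without it, the opposite order to the members. These differences are descriptions across genes of the same 4 libraries, and no test was made.

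Genes left out of these counts had low values in an assay or were absent from it. MRPL30, a large-subunit protein, had 12.6, 11.7, 11.97, 12.9 and 10.8 FPKM in RNA-Seq, but between 0.347 and 1.30 FPKM in Ribo-Seq, or 31 reads in the control and 7 at 19 h. MRPS17, a small-subunit protein, had 4.62 FPKM in control RNA-Seq and 1.94 in control Ribo-Seq. MRPL45P2, a pseudogene by its symbol, was below 1 FPKM in all 10 libraries, and reads that match MRPL45 as well were not kept by the authors' alignment. MRPL33 was listed in the Ribo-Seq table alone, at 50.97, 20.96, 33.99, 19.03 and 20.83 FPKM in the control and at 2, 4, 6 and 19 h.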

How the data were processed

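RNA-Seq of poly(A) RNA and Ribo-Seq were measured in 10 libraries of BJ cells, 1 per assay and time, grouped by their labels. Per the study's methods and the submitters' processing notes, the authors aligned reads with Bowtie to protein-coding transcripts of Ensembl release 65 (1 per gene; build hg19) and to ribosomal RNAs, and kept unique hits. The values the authors deposited are FPKM with 3 decimals. They name a batch effect of sequencing runs, but the labels give no run. Of the tables, that with Ribo-Seq alone in its name was taken as Ribo-Seq and the other as RNA-Seq. All 28 histone transcripts in both tables, whose mRNAs lack poly(A), were higher in the former (control medians 817 and 0.597 FPKM). Methods describe Ribo-Seq levels from coding reads and column names say total, which was not resolved.

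Values were floored at 1 FPKM, log2 changes taken against the control, and a change of at least 1.5-fold was called. Whole reads, lengths and totals were recovered from the FPKM spacing, for 7012 of 7015 tested genes in both assays (tested on simulated data: 290 of 300 genes exact in RNA-Seq, 292 of 300 in Ribo-Seq). The counting SE of a log2 change was the root of the summed inverse reads over ln 2. Copies made by PCR are not distinguished, and total reads need not be all mapped reads. No test was run. Named were the extremes of control RNA, control TE, RNA and TE changes at 19 h and TE changes at 4 h (2 to 6 per end), the S18 paralogs, MRPL12, MRPS30, MRPS36, members below the filter, and the 2 lowest and highest TE changes of each mitochondrial list. Members and lists were chosen with earlier results of these data known. Genes named COX4NB, ATP5SL and COX7A2L were left out of the oxidative phosphorylation subunits. Promoters came from RefSeq (GRCh38.p14). Alternatives were 1 FPKM added, a floor of 5, no filter, a mean of at least 20 FPKM, the 2 h baseline, centring, a length trend and a fold of 2. Python 3.11.15, numpy 2.4.6, pandas 2.3.3 and matplotlib 3.10.9 were used.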

Additional observations from a re-analysis of the deposited data

Results flagged for a closer look

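MRPS36 was the member called in opposite directions at different times in the same measure. At 4, 6 and 19 h its TE differed from the control by 0.69, -0.64 and -0.94. With 1 library per time the difference between times was not tested, and the 3 values share the control libraries. The 4 h Ribo-Seq library gave 704 reads for this gene, against 392 in the control, 304 at 2 h, 211 at 6 h and 131 at 19 h.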

How the results depend on the processing

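No error between replicates can be given for any value here, as each group is 1 library. Of 81 recomputed medians 76 kept their direction. Direction here is the sign against 0, not against all tested genes, and every setting reuses the same libraries. With the 2 h library in place of the control, the members' median changes at 4, 6 and 19 h were 0.0060, 0.14 and -0.078 in RNA. They were 0.27, -0.025 and -0.28 in density and 0.27, -0.20 and -0.20 in TE. Called lower in TE were 6 members at 6 h and 10 at 19 h, beside 8.45% and 10.2% of all tested genes. After subtracting the median change of all tested genes, the medians were -0.063, -0.027 and -0.11 in RNA at 2, 4 and 19 h, -0.028 and -0.28 in density at 4 and 19 h, and -0.15, -0.016 and -0.26 in TE at 2, 4 and 19 h. Called lower in TE were then 3 at 2 h and 3 at 4 h, beside 2.71% and 2.54% of all tested genes. With the trend over transcript length removed, the medians were -0.071 and -0.023 in RNA at 2 and 6 h. In density they were -0.079, -0.11 and -0.31 at 2, 6 and 19 h. In TE they were 0.0060, -0.055 and -0.17 at 2, 6 and 19 h. Called lower in TE at these times were 1, 7 and 10 members, beside 1.84%, 12% and 15.6% of all tested genes. Among the 40 members whose mean reached 20 FPKM in both assays the median was -0.22 in RNA at 19 h and -0.22 and -0.26 in TE at 6 and 19 h. Called lower in TE at 6 and 19 h were 7 and 5 of these members, beside 12.1% and 15.1% of all genes in this setting, which itself keeps fewer genes. At 2-fold, a stricter limit by construction, 1 member was called lower in TE at 6 h and 3 at 19 h. The share of all tested genes at that limit is not given here. Without a filter 1 member was called lower in TE at 2 h, beside 2.42% of all transcripts. Directions changed in 5 medians, all within 0.17 of 0: RNA at 4 h with the 2 h baseline, density and TE at 4 h after centring, and RNA at 6 h and TE at 2 h without the length trend. With values below 5 FPKM set to 5, the TE change of MRPS25 at 19 h was 0.22, because its Ribo-Seq values of 6.08 and 2.37 FPKM lie near or under that floor. Under that setting MRPL50 was at -0.52 and no longer called. With the 2 h baseline the TE changes of MRPL1 (-0.31), MRPS18C (-0.29), MRPS25 (-0.47), MRPS6 (-0.49) and MRPS34 (0.25) at 19 h were no longer called, that of MRPL50 was -0.94, and the uncalled values of MRPL23 (0.35), MRPS30 (-0.26), MRPL46 (-0.20) and MRPS2 (0.13) lay on the other side of 0. Without the length trend MRPS18C (-0.58) and MRPS6 (-0.44) were no longer called, and MRPL20 (0.058), MRPL23 (0.079), MRPS24 (0.25) and MRPS2 (0.047) changed sign. After centring MRPS6 (-0.57) was no longer called, and MRPS24 (0.050) and MRPS2 (0.021) changed sign. Otherwise the cause was not tested. No paired analysis was possible because each group holds 1 library and no test was made. Depth limits the low members most, with 65 Ribo-Seq reads at the least at 19 h.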
